A study of Rattus norvegicus with 9 samples.

Results

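The 34 genes described here encode the proteins that carry glucose into the cell and split it to lactate, the carbonic anhydrases and transporter that deal with the acid this makes, and the hypoxia-inducible factor (HIF) system with some of its target genes. They were chosen by name, for their role, and all 34 were found among the 17602 genes of the expression table and passed the filter of a value above 0 in at least 3 libraries, as did 16512 genes in all. RNA was sequenced from the knees of male wild-type Lewis rats aged 10 to 12 weeks, with 3 libraries in each of 3 groups. The intact group was synovium, the lining of the joint, taken beside the medial meniscus in knees without surgery. The sham group was the same tissue 1 week after the joint capsule was opened and closed again. The pMx group was the tissue regrowing 1 week after partial medial meniscectomy (pMx), an operation on both knees that frees the medial meniscus from its tibial ligament and takes out its front portion, and the synovium around the regrowing tissue was trimmed away. The operation and the tissue sampled therefore cannot be told apart in any comparison with the pMx group. The values are TPM, a transcript level scaled for transcript length and to a total of 1000000 in every library, so levels of different genes can be set side by side.

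Glycolysis turns 1 molecule of glucose into pyruvate in the cytosol without oxygen, and lactate dehydrogenase then turns pyruvate into lactate, which leaves the cell together with a proton. HIF is a pair of proteins whose alpha subunit, such as the product of Hif1a or Epas1, is marked for destruction by prolyl hydroxylases as long as oxygen is present. When oxygen is short the alpha subunit lasts and raises the transcription of glucose transporters, most glycolytic enzymes, carbonic anhydrase 9 and the prolyl hydroxylases themselves. Because the control of the HIF alpha protein is largely by its breakdown, the RNA level of Hif1a is no measure of HIF activity. The intact meniscus has few vessels in its inner zone, and cartilage-forming and dividing cells are known for active glycolysis.

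Libraries differed in their level of skeletal muscle markers, and the library with the most also had the highest sum of the 15 glycolytic enzyme genes. The part of muscle in the enzyme levels was not tested. The summed level of 17 skeletal muscle markers was 84.9, 319.9 and 56740 TPM in intact replicates 1 to 3, 1835, 4011 and 342.4 TPM in sham replicates 1 to 3, and 3514, 4093 and 113.7 TPM in pMx replicates 1 to 3. Muscle RNA was thus present in unequal amounts within every group, it stood far above the rest in intact replicate 3, and none of the 17 markers differed between groups by the test. Skeletal muscle is itself rich in glycolytic enzymes, and in intact replicate 3 the muscle-type phosphofructokinase gene Pfkm read 420.5 TPM against 31.3 and 35.3 TPM in the other 2 intact libraries, and Aldoa 5029 TPM against 763.1 and 780.4 TPM. Since one spread was estimated over all 9 libraries, intact replicate 3 also widened the error of the pMx versus sham comparison, in which it takes no other part. Counts over the 34 genes are therefore given with and without it, as are the pMx versus sham calls of single genes that it changed. The RNA integrity grades in the study's records also moved with the groups, lowest in intact and highest in pMx with no overlap, and their part in any comparison was not tested. All 10 synovial fibroblast markers were read in every library and summed to 12060 to 17550 TPM in the intact, 24190 to 28600 TPM in the sham and 57490 to 62340 TPM in the pMx libraries.

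**Figure D1:**
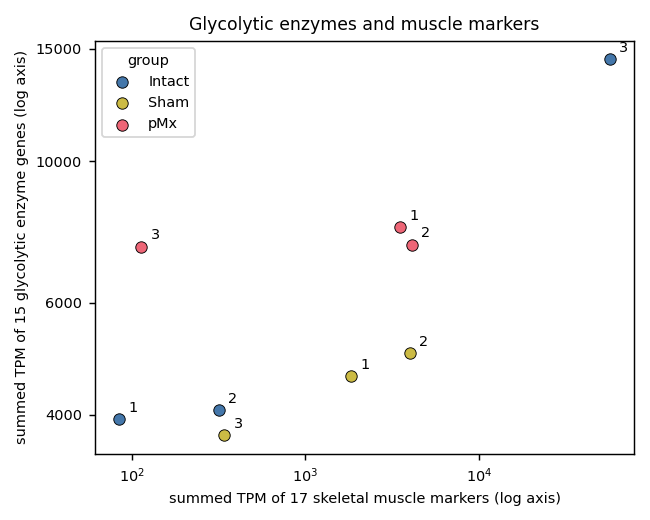
Summed level (TPM, log axis) of the 15 glycolytic enzyme genes against that of 17 skeletal muscle markers (TPM, log axis) in each library, coloured by group and numbered by replicate. Intact replicate 3 lies alone at 56740 TPM of muscle markers, and the 3 pMx libraries lie above the 3 sham libraries for the enzymes. Muscle markers run from 113.7 to 4093 TPM in pMx and from 342.4 to 4011 TPM in sham. The part of muscle in the enzyme levels was not tested.

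Most of the glycolysis and hypoxia genes stood higher in the regenerating tissue than in sham synovium. In limma's test on log2(TPM + 1), 17 of the 34 genes rose at an adjusted p below 0.05 and 2 fell, against 17.7% of all genes tested that were higher and 18.9% that were lower. The groups did not overlap for 23 genes that were higher and 3 that were lower in pMx, where 27.0% and 29.0% of all genes tested behaved so. As differentially expressed genes (DEGs, past the same adjusted p and with a log2 fold change beyond 1 either way), 5 were higher and 0 were lower, against 3.36% and 4.85% of all genes. The median log2 fold change of the 34 genes was 0.56, and that of all genes tested was -0.01. Without intact replicate 3, 23 genes rose and 3 fell, where 22.1% and 23.5% of all genes did.

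**Figure D2:**
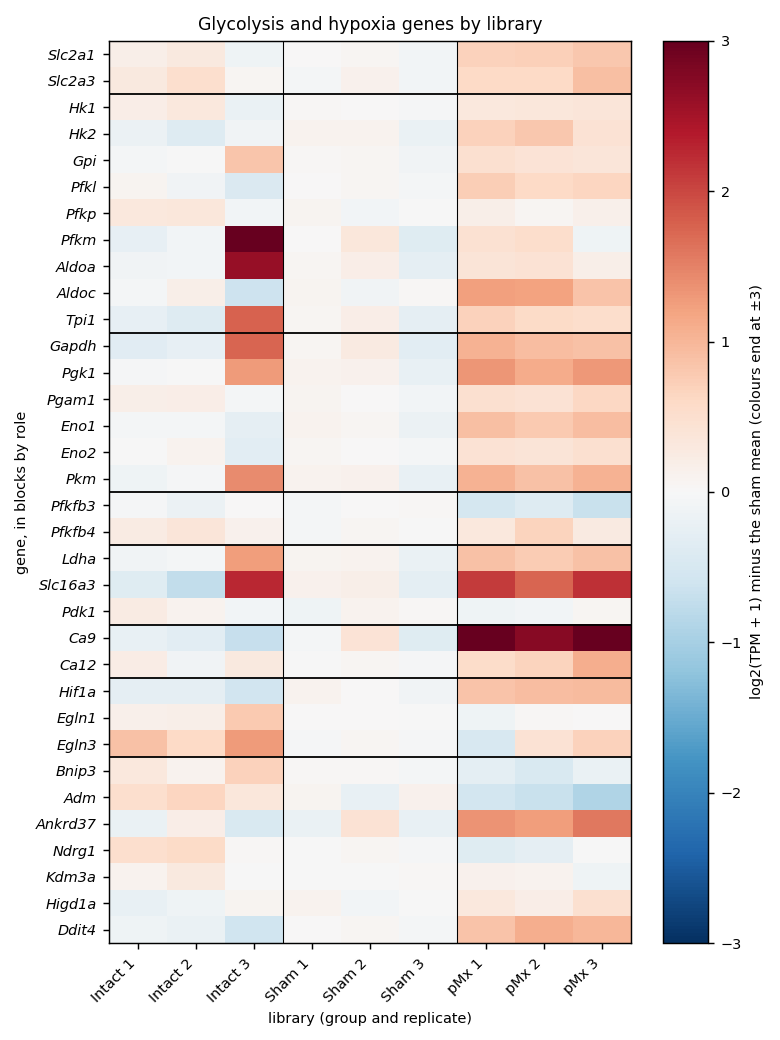
Level of each of the 34 genes in each of the 9 libraries as log2(TPM + 1) minus the mean of the 3 sham libraries, in blocks by role from glucose transporters at the top to HIF target genes at the bottom, with colours ending at 3 either way. The pMx columns are red for most rows, Ca9 and Slc16a3 most of all, while Pfkfb3 and Adm are blue. Intact replicate 3 is red for Pfkm, Aldoa, Tpi1, Gapdh, Pgk1, Pkm, Ldha, Slc16a3 and Egln3, and more faintly for some others such as Gpi, Egln1 and Bnip3.

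**Figure D3:**
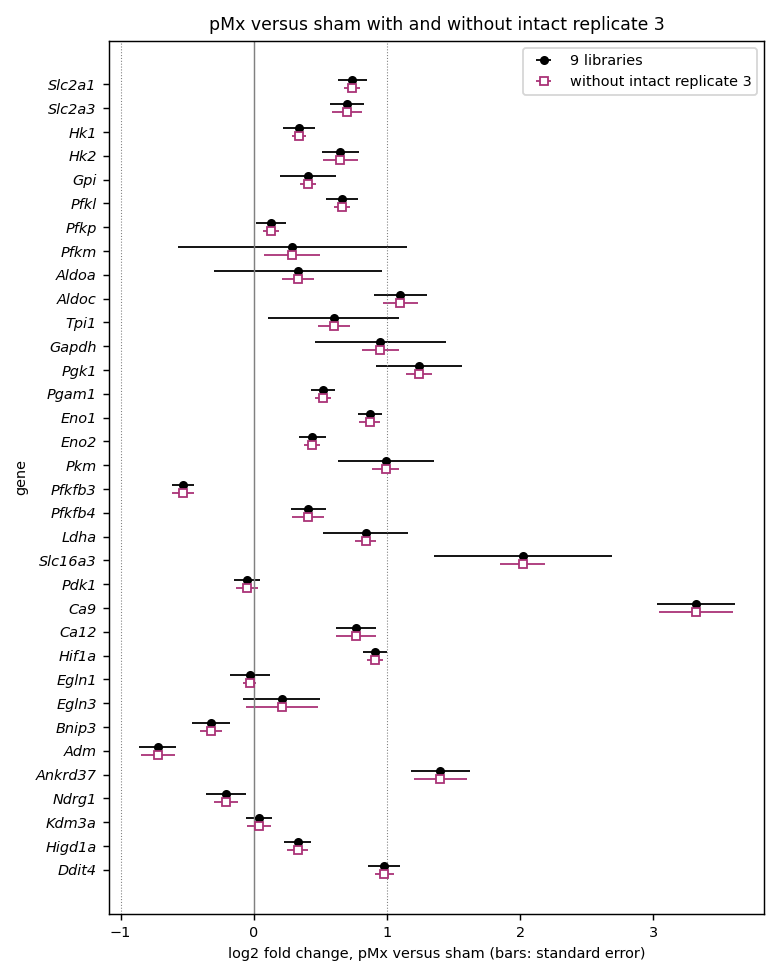
Log2 fold change of pMx versus sham for each gene, with its standard error as a bar, from the fit to all 9 libraries (filled) and from the fit without intact replicate 3 (open). Leaving that library out left every fold change where it was and shortened the bars of Pfkm, Aldoa, Tpi1, Gapdh, Pgk1, Pkm, Ldha and Slc16a3.

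Promoter sequence was not read when the genes were chosen. Some were chosen as HIF targets, however, so the share of them with a HIF motif is not independent of that choice. RefSeq promoters on the rat assembly GRCr8 were matched to 31 of the 34 genes, all but Slc2a3, Pgk1 and Ndrg1, and the 250 bases before the annotated start were searched on both strands for ACGTG and GCGTG, the core letters that HIF binds. Either word was found before the start in 18 of the 31 genes (58.1%), in 51.4% of the promoters of the genes tested and in 37.9% of all promoters in the table. ACGTG alone was found in 13 (41.9%), 20.6% and 16.9% respectively. The 6 stretches printed here are shown because genes of both directions hold the core. They come from Ca9, Ldha, Ankrd37 and Ddit4, whose 3 pMx values lay above the 3 sham values, and from Pfkfb3 and Bnip3, whose pMx values lay below. They read 5′ to 3′ in the direction of the gene, each ends at the base before the start except Ca9, which runs on for 30 bases, and capitals mark every match, so CACGT and CACGC are matches on the other strand and CACGTG is a match on both.
Ca9 (chr5:62558774-62559053, plus strand): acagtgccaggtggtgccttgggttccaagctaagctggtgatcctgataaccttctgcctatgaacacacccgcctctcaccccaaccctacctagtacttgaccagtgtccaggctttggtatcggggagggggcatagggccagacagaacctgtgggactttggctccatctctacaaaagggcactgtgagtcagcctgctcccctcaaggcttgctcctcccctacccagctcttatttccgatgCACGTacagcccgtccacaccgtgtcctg
Ldha (chr1:106507842-106508091, plus strand): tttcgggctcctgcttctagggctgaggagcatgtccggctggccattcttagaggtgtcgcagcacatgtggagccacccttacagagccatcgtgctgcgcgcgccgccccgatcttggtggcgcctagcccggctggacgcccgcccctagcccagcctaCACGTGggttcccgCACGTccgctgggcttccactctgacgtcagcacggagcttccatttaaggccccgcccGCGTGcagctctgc
Ankrd37 (chr16:53001257-53001506, plus strand): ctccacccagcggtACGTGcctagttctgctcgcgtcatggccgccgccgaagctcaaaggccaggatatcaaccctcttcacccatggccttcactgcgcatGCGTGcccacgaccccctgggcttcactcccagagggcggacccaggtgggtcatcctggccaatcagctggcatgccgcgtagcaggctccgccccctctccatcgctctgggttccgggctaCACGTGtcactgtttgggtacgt
Ddit4 (chr20:28437038-28437287, minus strand): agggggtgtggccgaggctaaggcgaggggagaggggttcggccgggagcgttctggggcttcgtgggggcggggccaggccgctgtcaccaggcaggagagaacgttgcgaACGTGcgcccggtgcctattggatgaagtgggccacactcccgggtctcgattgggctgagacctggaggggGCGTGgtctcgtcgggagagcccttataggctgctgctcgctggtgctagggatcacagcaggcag
Pfkfb3 (chr17:71944683-71944932, plus strand): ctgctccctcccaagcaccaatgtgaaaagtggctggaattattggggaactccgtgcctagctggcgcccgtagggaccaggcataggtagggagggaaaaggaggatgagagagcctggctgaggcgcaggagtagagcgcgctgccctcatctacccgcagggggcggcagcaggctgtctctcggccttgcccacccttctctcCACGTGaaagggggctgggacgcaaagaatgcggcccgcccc
Bnip3 (chr1:203154963-203155212, minus strand): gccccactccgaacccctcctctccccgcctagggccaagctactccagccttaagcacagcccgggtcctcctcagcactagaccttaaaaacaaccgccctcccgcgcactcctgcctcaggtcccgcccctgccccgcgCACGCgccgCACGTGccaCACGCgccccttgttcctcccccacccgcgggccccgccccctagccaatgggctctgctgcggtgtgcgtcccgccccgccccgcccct
Ldha, Ankrd37, Pfkfb3 and Bnip3 each hold the palindrome CACGTG, as does Hif1a, whose stretch is not printed. Ldha, Ankrd37 and Hif1a were higher in pMx, and Pfkfb3 and Bnip3 were lower. A link of the palindrome with direction was not tested. In Ca9 the only match lay past the start, with its first letter at base 2 of the annotated transcript, a stretch looked at after its values were seen. Over the whole 300-base window, which adds the first bases of the transcript, 21 of the 31 genes (67.7%) and 57.2% of the genes tested held a match. By direction in pMx versus sham, a match before the start was present in 10 of 15 genes that rose, in 1 of 2 that fell and in 7 of 14 that did not pass the test. For 4 genes RefSeq lists more than 1 start, and the first listed was used. A match says that the letters are there, and no match says only that they are not in this window.

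Both glucose transporters rose in the regenerating tissue. Slc2a1, which encodes the widespread transporter GLUT1, read 21.5, 22.2 and 20.1 TPM in the sham and 34.9, 35.6 and 38.2 TPM in the pMx libraries (log2 fold change 0.74, SE 0.11, adjusted p = 0.00097 by limma). Every pMx library was above every sham and every intact library. Slc2a3, the high-affinity transporter GLUT3, went from 20.6, 23.6 and 20.3 TPM to 33.0, 32.8 and 40.8 TPM (log2 fold change 0.70, SE 0.13, limma adjusted p = 0.00346). The first step inside the cell is the phosphorylation of glucose by hexokinase, which traps it. Hk2, the regulated hexokinase, rose from 12.8, 12.8 and 10.2 TPM to 19.9, 21.6 and 16.2 TPM (log2 fold change 0.65, SE 0.14, limma adjusted p = 0.00618). Hk1, the constitutive one, was tighter within the groups, at 48.2, 47.3 and 46.3 TPM in sham and 59.2, 59.8 and 61.0 TPM in pMx. A log2 fold change of 0.34 did not pass with all 9 libraries (limma adjusted p = 0.0539) and passed without intact replicate 3 (adjusted p = 0.000729), whose Hk1 level was 40.7 TPM against 54.1 and 59.2 TPM in the other intact libraries.

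The 15 glycolytic enzyme genes together made up 3721 to 4993 TPM in the sham and 7340 to 7880 TPM in the pMx libraries, or 4440 ± 651 and 7540 ± 297 TPM (SD, n = 3). Intact replicates 1 and 2, at 3940 and 4065 TPM, lay within the sham range, and intact replicate 3 held 14430 TPM. Of the 15 genes, 7 rose with all 9 libraries and 12 without intact replicate 3, and 0 fell in either. Among all genes tested, 17.7% rose and 18.9% fell with all 9 libraries, and 22.1% and 23.5% without intact replicate 3. In the libraries with the least muscle RNA of their group, sham replicate 3 and pMx replicate 3, the sum was 3721 and 7340 TPM and each of the 15 genes was higher in pMx. Their median ratio was 1.64. This sets 1 library against 1, and sham replicate 3 also had the lowest enzyme sum of its group. The share of all genes that were higher in this pair was not computed.

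Among the enzymes that prepare glucose for splitting, the liver-type phosphofructokinase gene Pfkl was the one of its 3 isoforms that passed the test with all 9 libraries. It read 44.0, 45.7 and 42.1 TPM in sham and 74.2, 67.1 and 69.1 TPM in pMx (log2 fold change 0.66, SE 0.12, limma adjusted p = 0.00261). The platelet-type Pfkp, at 32.1 to 36.3 TPM in sham and 35.8 to 38.8 TPM in pMx, overlapped between the groups, as did Pfkm at 29.1 to 47.5 and 34.3 to 54.5 TPM. Pfkl therefore made up 37.9 ± 1.90% of the TPM of the 3 isoforms in sham and 45.5 ± 3.19% in pMx (SD, n = 3), with no overlap, while in intact replicate 3 Pfkm alone made up 86.7%. Aldolase, which cuts the sugar, showed the same kind of split. The minor isoform Aldoc was a DEG, at 6.60, 5.70 and 6.39 TPM in sham and 15.9, 15.7 and 12.04 TPM in pMx (log2 fold change 1.10, SE 0.20, limma adjusted p = 0.00301). The abundant Aldoa ranged from 684.4 to 950.1 TPM in sham and from 927.3 to 1110 TPM in pMx, overlapped, and did not pass the test with or without intact replicate 3 (adjusted p = 0.733 and 0.0599 by limma). Pfkm and Aldoa did pass without intact replicate 3 when a skeletal muscle score was a covariate, a fit chosen after seeing the data. Their log2 fold changes were then 0.29 and 0.33 (limma adjusted p = 0.00616 and 0.00752). Gpi, which turns glucose 6-phosphate into fructose 6-phosphate, and Tpi1, which interconverts the products of aldolase, were higher in each pMx than in each sham library (Gpi 295.3 to 323.5 against 215.2 to 241.2 TPM, Tpi1 395.0 to 448.3 against 230.0 to 319.1 TPM). They did not pass with all 9 libraries (limma adjusted p = 0.16 and 0.381) and did without intact replicate 3 (0.000778 and 0.00401).

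Each of the 6 genes of the lower, energy-yielding steps had its 3 pMx values above its 3 sham values, as did 27.0% of all genes tested. Pgk1, which makes the first ATP of the pathway, was a DEG, at 183.4, 187.2 and 146.0 TPM in sham and 427.2, 372.9 and 420.1 TPM in pMx, a ratio of means of 2.36 (log2 fold change 1.24, SE 0.32, limma adjusted p = 0.0151). The call was lost without sham replicate 3, where the adjusted p was 0.0572 at a log2 fold change of 1.13. Eno1, the main enolase, rose from 506.6, 491.6 and 419.7 TPM to 884.6, 809.6 and 892.1 TPM (log2 fold change 0.87, SE 0.09, limma adjusted p = 0.000235). The mutase gene Pgam1 and the neuronal-type enolase Eno2 rose by less, with log2 fold changes of 0.52 and 0.44. Eno1 outnumbered Eno2 by 13.4 ± 0.760 in sham and 18.0 ± 0.405 in pMx (ratio of TPM, SD, n = 3).

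Gapdh and Pkm had large differences that did not pass the test over all 9 libraries. Gapdh, often used as a reference gene, read 1608, 1874 and 1246 TPM in sham and 3188, 2959 and 2872 TPM in pMx, a ratio of means of 1.91 (log2 fold change 0.95, SE 0.49, limma adjusted p = 0.167). The groups did not overlap. Pkm, the pyruvate kinase that makes the last ATP of the pathway, read 496.0, 505.8 and 393.9 TPM in sham and 956.4, 857.6 and 954.9 TPM in pMx, a ratio of 1.98 (log2 fold change 0.99, SE 0.36, limma adjusted p = 0.06). In intact replicate 3 the levels were 5248 TPM for Gapdh and 1238 TPM for Pkm, and without that library the limma adjusted p values were 0.00105 and 0.000176 at the same fold changes. Between the 1 sham and the 1 pMx library with the least muscle RNA, Gapdh was 2.30 and Pkm 2.42 times as high in pMx as in sham. That sham library had the lowest sham level of both genes.

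The genes for phosphofructokinase-2, which makes the strongest activator of phosphofructokinase, went in opposite directions. Pfkfb3, whose enzyme strongly favours making the activator and which is a known HIF target, fell from 36.9, 38.9 and 39.2 TPM in sham to 26.2, 28.8 and 23.7 TPM in pMx (log2 fold change -0.53, SE 0.08, limma adjusted p = 0.00125). The intact libraries lay with the sham libraries, at 37.4, 34.0 and 38.6 TPM. Pfkfb4, a low-level relative, read 4.01, 4.48 and 4.22 TPM in sham and 5.51, 7.30 and 5.28 TPM in pMx (log2 fold change 0.41, limma adjusted p = 0.0329). That call was lost when sham replicate 1, 2 or 3 or pMx replicate 1 or 2 was left out (adjusted p from 0.0524 to 0.0985). The ratio of Pfkfb3 to Pfkfb4 was 9.06 ± 0.337 in sham and 4.40 ± 0.412 in pMx (SD, n = 3), with no overlap.

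On the lactate side, Ldha and its exporter were both higher in pMx. Ldha, the lactate dehydrogenase subunit that favours making lactate, read 415.6, 419.0 and 342.4 TPM in sham and 718.5, 658.9 and 719.6 TPM in pMx (log2 fold change 0.84, SE 0.32, limma adjusted p = 0.0719). Intact replicate 3 held 936.8 TPM, and without it the adjusted p was 0.000168. Slc16a3, which encodes the lactate exporter MCT4, read 13.8, 14.2 and 10.1 TPM in sham and 57.2, 44.7 and 61.1 TPM in pMx, a ratio of means of 4.28. It was a DEG with all 9 libraries (log2 fold change 2.02, SE 0.67, limma adjusted p = 0.0439), but this depended on the spread. Leaving out any 1 of the sham or pMx libraries gave adjusted p values from 0.0806 to 0.124, median-of-ratios rescaling gave 0.0504, robust eBayes gave 0.0799, and leaving out intact replicate 3, where Slc16a3 read 64.3 TPM against 9.48 and 7.16 TPM in the other intact libraries, gave 7.69e-05. MCT4 is also the lactate exporter of fast muscle. In pMx replicate 3, the pMx library with the least muscle RNA, Slc16a3 was 6.06 times its level in sham replicate 3. This sets 1 library against 1, and it sets the highest pMx value against the lowest sham value. The part of muscle in the Slc16a3 levels was not tested. Pdk1, a kinase that holds pyruvate dehydrogenase back and a well-known HIF target, did not differ by the test, at 32.9 to 38.4 TPM in sham and 32.7 to 37.4 TPM in pMx (log2 fold change -0.05, SE 0.10, limma adjusted p = 0.726).

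The steepest rise among the 34 genes was in Ca9, which encodes carbonic anhydrase 9, an enzyme on the outer cell surface that helps a glycolytic cell to shed acid and is a standard tissue marker of hypoxia. It read 0.73, 0.62 and 0.24 TPM in the intact, 0.94, 1.69 and 0.57 TPM in the sham and 22.6, 12.4 and 25.1 TPM in the pMx libraries. The lowest pMx library was well above every other library. The ratio of means was 18.8 against sham and 37.7 against intact, and the log2 fold changes on the log2(TPM + 1) scale, which understates changes of genes this low, were 3.32 (SE 0.29, limma adjusted p = 8.5e-05) and 3.74 (SE 0.29, adjusted p = 1.64e-05). Ca12, a relative at the cell surface, stayed near the floor of the measurement. It read 0.06, 0.12 and 0.05 TPM in sham and 0.57, 0.72 and 1.30 TPM in pMx and was listed at 0 in 1 intact library (log2 fold change 0.77, limma adjusted p = 0.00421, and 0.0573 with a pseudocount of 0.01).

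Hif1a itself rose in steps from intact to sham to pMx. Its level was 71.2, 71.9 and 57.6 TPM in the intact, 92.2, 87.6 and 79.5 TPM in the sham and 157.5, 165.3 and 167.3 TPM in the pMx libraries, and no 2 groups overlapped. Against sham the log2 fold change was 0.91 (SE 0.09, limma adjusted p = 0.000175), and against intact it was 1.28 (SE 0.09, limma adjusted p = 1.24e-05). Epas1, which encodes the other main alpha subunit, HIF-2 alpha, and is prominent in endothelium, went the other way. It read 226.6, 258.9 and 178.2 TPM in the intact, 149.7, 149.5 and 143.3 TPM in the sham and 93.8, 105.6 and 111.4 TPM in the pMx libraries (pMx versus sham log2 fold change -0.51, SE 0.13, limma adjusted p = 0.0135). The ratio of Hif1a to Epas1 was thus 0.305 ± 0.0241, 0.586 ± 0.0306 and 1.58 ± 0.0889 in the 3 groups (SD, n = 3). Of 8 endothelial markers, 3 fell and 0 rose in pMx versus sham, or 3 and 2 without intact replicate 3. Among all genes, 18.9% fell and 17.7% rose, or 23.5% and 22.1% without that library. The 8 markers summed to 762.5 to 807.8 TPM in sham and 635.3 to 809.2 TPM in pMx, and the part of endothelium in the Epas1 levels was not tested. In bulk tissue fewer cells of a type and less RNA per cell cannot be told apart.

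The prolyl hydroxylase genes did not follow Hif1a. Egln1, which encodes the main oxygen-sensing hydroxylase PHD2, read 25.7 to 26.3 TPM in sham and 23.9 to 26.9 TPM in pMx (log2 fold change -0.03, SE 0.15, limma adjusted p = 0.922). Egln3, encoding PHD3 and strongly induced by HIF in many cells, was spread widely in pMx, at 5.17, 10.6 and 13.1 TPM, around a sham level of 7.48, 8.02 and 7.47 TPM (limma adjusted p = 0.618). Its highest levels were in the intact synovium, at 14.8, 12.1 and 20.1 TPM.

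**Figure D4:**
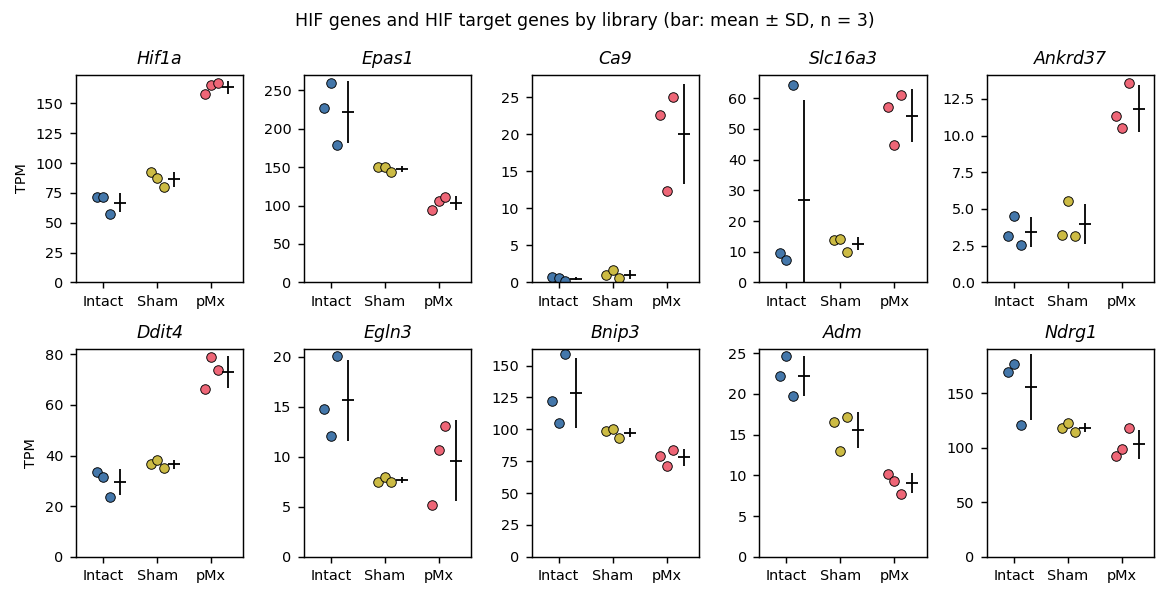
Level (TPM, axes from 0) of Hif1a, Epas1 and 8 HIF target genes in each library of the intact, sham and pMx groups, with the mean ± SD of 3 libraries as a bar beside the points (a bar that would reach below 0 is cut there). Hif1a, Ca9, Ankrd37 and Ddit4 stand highest in pMx, Epas1, Bnip3 and Adm stand lowest there, Slc16a3 has 1 intact library at 64.3 TPM, and Egln3 and Ndrg1 overlap between sham and pMx.

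Of 7 HIF targets outside glucose metabolism, 3 rose, 1 fell and 3 did not pass the test in pMx versus sham, where 17.7% of all genes rose and 18.9% fell. Ankrd37, an ankyrin repeat gene regularly used to read HIF activity, was a DEG, at 3.20, 5.52 and 3.14 TPM in sham and 11.4, 10.5 and 13.6 TPM in pMx (log2 fold change 1.40, SE 0.22, limma adjusted p = 0.00153). Ddit4, an inhibitor of mTOR signalling that hypoxia and other stresses induce, rose from 36.5, 38.1 and 34.9 TPM to 66.3, 78.9 and 73.9 TPM, a ratio of means of 2.00 (log2 fold change 0.98, SE 0.12, limma adjusted p = 0.000478). Both were separated from sham and intact in every library. Higd1a, a mitochondrial protein gene, was higher by 0.33 on the log2 scale (limma adjusted p = 0.0316), a call that was lost without sham replicate 2 or 3 or pMx replicate 1 or 3 (adjusted p from 0.0734 to 0.104) and with median-of-ratios rescaling (0.0655).

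Adm, which encodes the vessel-relaxing peptide adrenomedullin and is a HIF target in many tissues, fell. It read 22.2, 24.7 and 19.7 TPM in the intact, 16.5, 13.0 and 17.1 TPM in the sham and 10.2, 9.27 and 7.73 TPM in the pMx libraries, with no overlap between any 2 groups (pMx versus sham log2 fold change -0.72, SE 0.14, limma adjusted p = 0.00391). Bnip3, which marks mitochondria for removal, had the same order of levels at 105.1 to 158.7, 93.1 to 99.98 and 70.9 to 84.1 TPM, with a pMx versus sham log2 fold change of -0.32 that passed only without intact replicate 2 or 3 among the fits that left out 1 library (limma adjusted p = 0.0999 with all 9, 0.0486 and 0.012). Ndrg1, a stress-responsive gene, and the histone demethylase gene Kdm3a overlapped between sham and pMx, with log2 fold changes of -0.21 and 0.04 (limma adjusted p = 0.306 and 0.818).

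Sham surgery alone was read from sham versus intact. There, 1 of the 34 genes rose at an adjusted p below 0.05 and 0 fell, against 6.73% and 5.97% of all genes tested, and 0 were DEGs, against 1.42% higher and 0.533% lower. At an adjusted p below 0.05 that 1 gene was Hif1a (log2 fold change 0.37, SE 0.09, limma adjusted p = 0.0372). Its call was lost when any 1 of 6 libraries was left out, namely intact replicate 2, sham replicates 1 and 2 and the 3 pMx libraries (adjusted p from 0.0521 to 0.121), or when the 6 libraries of the comparison were fitted alone (0.0999). The groups did not overlap for 2 genes that were higher in sham and 5 that were lower, where 14.2% and 16.4% of all genes behaved so. The lower ones were Pfkfb4, Egln1, Egln3, Bnip3 and Adm. Without intact replicate 3, Hif1a rose and Hk1, Pfkp, Adm and Ndrg1 fell, against 6.31% and 11.8% of all genes, so the 4 that fell were as frequent as among all genes. The median log2 fold change of the 34 genes was -0.16 with that library and 0.01 without it, and that of all genes was -0.02.

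Against intact synovium, the regenerating tissue had 14 of the 34 genes higher and 4 lower at an adjusted p below 0.05, where 23.4% and 27.1% of all genes were called, and 5 higher and 1 lower as DEGs, where 6.40% and 7.89% were. The DEGs were Ca9, Ankrd37, Ddit4, Hif1a and Aldoc, which were higher, and Adm, which was lower (log2 fold change -1.21, SE 0.14, limma adjusted p = 0.00013). The groups did not overlap for 15 genes that were higher and 5 that were lower, against 26.9% and 30.6% of all genes, and the median log2 fold change was 0.42, where that of all genes was -0.03. This comparison shares the pMx libraries with the one against sham. It depended most on intact replicate 3, without which 21 genes were higher and 6 lower, against 22.7% and 31.6% of all genes. As DEGs, 9 of the 34 were then higher and 1 was lower, against 990 and 1429 of 16432 genes. Aldoa changed sign, from a log2 fold change of -0.48 (limma adjusted p = 0.563) to 0.42 (adjusted p = 0.0326). Slc16a3 went from 1.63 (adjusted p = 0.072) to 2.57 (adjusted p = 2.31e-05), and Gapdh from 0.56 (adjusted p = 0.379) to 1.24 (adjusted p = 0.000326). Slc2a3 lost its call (limma adjusted p = 0.028 with and 0.0666 without), as it did without intact replicate 1 (0.0621) or pMx replicate 3 (0.0964) or with the 6 libraries alone (0.053). Ndrg1, Bnip3 and Pfkfb3 were lower in pMx than in intact tissue in both fits.

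Of 24 other isoforms of the same steps, 23 were in the table and 19 were tested. In pMx versus sham 4 rose, 4 fell and 11 did not pass, shares near the 17.7% and 18.9% of all genes, and the median log2 fold change was -0.06. Slc2a4, the insulin-responsive glucose transporter of fat and muscle, fell from 24.0, 27.0 and 28.1 TPM in sham to 6.37, 5.47 and 5.5 TPM in pMx (log2 fold change -2.01, SE 0.19, limma adjusted p = 0.000118). Ldhb, the subunit of lactate dehydrogenase found in oxidative tissue, fell from 79.8, 85.5 and 76.4 TPM to 23.5, 21.1 and 23.9 TPM (log2 fold change -1.78, SE 0.10, limma adjusted p = 2.16e-05). Pfkfb1, the liver and muscle form of phosphofructokinase-2, fell (log2 fold change -1.71), and Slc2a10, the transporter GLUT10, rose from 5.35 to 6.18 TPM in sham to 14.97 to 16.6 TPM in pMx (log2 fold change 1.31, SE 0.10, limma adjusted p = 5.57e-05). Slc16a1, the widespread lactate transporter MCT1, chosen after its values were seen as the partner of Slc16a3, read 20.3 to 23.2 TPM in sham and 20.3 to 22.8 TPM in pMx.

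Ratios between paired genes differed between the tissues for some steps, while that of Hk2 to Hk1 overlapped, at 0.220 to 0.270 in sham and 0.266 to 0.362 in pMx. Ldha stood to Ldhb at 5.21, 4.90 and 4.48 in sham and at 30.5, 31.3 and 30.1 in pMx, and at 3.13, 3.72 and 7.02 in the intact libraries. The means were 4.86 ± 0.366 in sham and 30.7 ± 0.586 in pMx (SD, n = 3), and the pMx libraries stood above all 6 others. Slc2a1 stood to Slc2a4 at 0.812 ± 0.0900 in sham and 6.31 ± 0.752 in pMx, and Slc16a3 to Slc16a1 at 0.570 ± 0.0644 and 2.58 ± 0.551. All 10 adipocyte markers fell as DEGs in pMx versus sham, where 4.85% of all genes did. Their sum went from 5888 to 7057 TPM to 397.4 to 658.6 TPM. Of 8 red blood cell markers 6 fell, where 18.9% of all genes did, and the 8 went from 9808 to 14910 TPM to 823.8 to 964.9 TPM. Slc2a4 is a fat gene as well, and the part of these cells in the ratios was not tested.

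**Figure D5:**
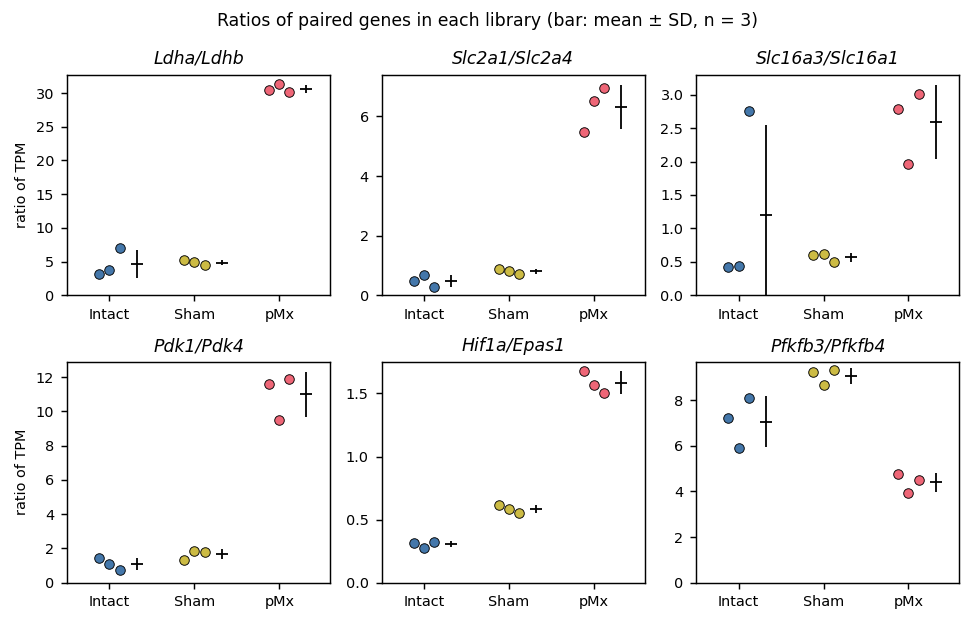
Ratio of the TPM of paired genes in each library (axes from 0) for the intact, sham and pMx groups, with the mean ± SD of 3 libraries as a bar beside the points (cut at 0 where it would reach below). For Ldha to Ldhb, Slc2a1 to Slc2a4, Pdk1 to Pdk4 and Hif1a to Epas1 the pMx libraries lie above all others, for Pfkfb3 to Pfkfb4 they lie below, and for Slc16a3 to Slc16a1 intact replicate 3, at 2.75, lies among them.

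Of 14 tested genes that act, either way, on the entry of pyruvate into the mitochondria or its use there, 4 fell and 0 rose in pMx versus sham. Among all genes, 18.9% fell and 17.7% rose, and the median log2 fold change of the 14 genes was -0.25. Without intact replicate 3, 8 of the 14 fell and 0 rose, against 23.5% and 22.1% of all genes. Pdk4, a kinase of fasting and fat-burning tissue that, like Pdk1, holds pyruvate dehydrogenase back, fell from 24.5, 20.6 and 20.3 TPM to 2.81, 3.55 and 3.14 TPM (log2 fold change -2.45, SE 0.15, limma adjusted p = 2.63e-05). Pc, pyruvate carboxylase, which is high in fat cells, fell from 52.1, 77.8 and 61.2 TPM to 7.78, 7.82 and 6.74 TPM (log2 fold change -2.92, SE 0.60, limma adjusted p = 0.00575). Mpc2, a subunit of the mitochondrial pyruvate carrier, and Dld, a subunit of pyruvate dehydrogenase, fell by less, with log2 fold changes of -0.53 and -0.39. The 14 genes summed to 859.3 to 917.2 TPM in sham and 655.1 to 665.4 TPM in pMx.

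Of 19 tested genes of the pentose phosphate pathway and of glycogen, 2 rose, 4 fell and 13 did not pass in pMx versus sham, near or below the 17.7% and 18.9% of all genes, with a median log2 fold change of -0.17. Without intact replicate 3, 5 rose and 6 fell, against 22.1% and 23.5% of all genes. Rpia, of the pentose phosphate pathway, fell from 35.9, 35.4 and 35.0 TPM to 27.3, 25.5 and 27.2 TPM (log2 fold change -0.40, SE 0.06, limma adjusted p = 0.000907). Gys2, the liver-type glycogen synthase, went from 3.33 to 5.65 TPM to at most 0.09 TPM, with 1 pMx library listed at 0 (limma adjusted p = 0.00175). Ugp2, which makes the glucose donor for glycogen, fell in sham versus intact (log2 fold change -0.58, limma adjusted p = 0.0122). Of 13 regulators of HIF, 1 rose and 2 fell in pMx versus sham, or 1 and 3 without intact replicate 3, with a median of -0.07. The fallers were Epas1 and Cited2, which competes with HIF for a co-activator (log2 fold change -0.41, limma adjusted p = 0.03), and the riser was Siah2, a ubiquitin ligase that acts on the prolyl hydroxylases (log2 fold change 0.36, limma adjusted p = 0.0287).

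A further list of 44 tested HIF targets had 19 genes higher and 9 lower in pMx versus sham, against 17.7% and 18.9% of all genes. As DEGs, 8 were higher and 1 was lower, against 3.36% and 4.85%. The median log2 fold change was 0.33. Without intact replicate 3, 21 were higher and 10 lower, against 22.1% and 23.5% of all genes. Hmox1, heme oxygenase, which breaks down heme and answers to oxidative stress as well as to HIF, rose from 112.0, 135.3 and 80.0 TPM to 474.7, 348.7 and 619.8 TPM (log2 fold change 2.12, SE 0.24, limma adjusted p = 0.000277). It had already risen in sham versus intact, from 46.98, 35.9 and 39.8 TPM (log2 fold change 1.37, SE 0.24, limma adjusted p = 0.0118). Plod2, which hydroxylates collagen lysines, rose from 124.0, 101.3 and 86.2 TPM to 321.7, 331.0 and 308.2 TPM (log2 fold change 1.63, SE 0.12, limma adjusted p = 4.33e-05). Tfrc, the transferrin receptor, rose by 1.58 on the log2 scale (SE 0.52, limma adjusted p = 0.0427), with intact replicate 3 at 25.6 TPM against 5.01 and 5.08 TPM in the other intact libraries. Picked after their values were seen, the other collagen-modifying genes of the list, P4ha1, P4ha2, P4hb and Loxl2, also rose, by 1.19, 0.95, 0.92 and 1.25 on the log2 scale (limma adjusted p = 4.04e-05, 0.000364, 0.000258 and 0.000398). Vegfa, the vessel growth factor, rose by 0.42 (limma adjusted p = 0.0381). Of the 9 that fell, also picked after their values were seen, Stc2, a secreted stanniocalcin, was the DEG (log2 fold change -1.05, limma adjusted p = 0.015), and Vldlr, a lipoprotein receptor, and Bnip3l, a relative of Bnip3, fell by 0.70 and 0.33 on the log2 scale (limma adjusted p = 0.000696 and 0.0083). Collagen and cell cycle markers also rose in pMx versus sham. Of 10 fibroblast markers, which include Col1a1, Col1a2 and Col3a1, 6 rose and 1 fell, and all 10 cell cycle markers rose, from a sum of 148.3 to 190.7 TPM in sham to 347.2 to 386.1 TPM in pMx. Of 10 macrophage markers, 1 rose and 1 fell, at a sum of 6421 to 7366 TPM in sham and 7841 to 7992 TPM in pMx. Of 8 chondrocyte markers, 3 rose and 2 fell, and their sum was 548.8 to 633.0 TPM in sham and 1003 to 1199 TPM in pMx. The part of these cells in the glycolysis and hypoxia results was not tested.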

How the data were processed

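Per the labels, titles gave each library its group and replicate number. Oligo-dT captured mRNA was sequenced at BGI on the DNBSEQ platform. The submitters' processing notes name HISAT2 2.0.4 and mRatBN7.2. The counting tool and annotation are not given in the sources used here. The authors deposited TPM rounded to 2 decimals, which keep no read number, so the depth is unknown and the spread over 3 libraries is the only error.

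Genes with a TPM above 0 in 3 or more libraries (16512) were taken as log2(TPM + 1) and fitted over all 9 libraries, with 1 mean per group, in limma 3.58.1 under R 4.3.3 (eBayes with trend, Benjamini-Hochberg over all genes). In a simulated pMx versus sham comparison of 16512 genes with 200 changed, 90% of changes of 0.7 and 98% of changes of 1.5 (log2) were recovered and 8 unchanged genes were called. Every simulated library, intact ones included, took its level from sham and its spread from sham and pMx. The spread added by intact replicate 3 was thus missing, and changes were placed only in genes above a low level. The recovered shares therefore do not describe the real fit to all 9 libraries. The members and lists were chosen with earlier results of these data known. All members were named, and of each other list up to 4 genes with the largest change past the threshold. Some genes that this rule covers are not reported here. Promoters come from RefSeq on GRCr8, not the build of the reads, and protein sequences were not used here. Ldha may share reads with Ldhal6b. Libraries of equal replicate number have no stated shared origin, and the values do not decide whether they pair. Once each group's mean was taken off, pMx and sham libraries of equal number correlated at 0.03, 0.37 and 0.48. Pairs that included an intact library gave -0.66 to 0.0. The skeletal muscle marker sums followed the same replicate order in sham and pMx, but not in intact. Alternatives were other pseudocounts, filters, rescalings and limma settings, the 6 libraries of a comparison alone, a muscle score as covariate, a replicate block and leaving out each library.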

Additional observations from a re-analysis of the deposited data

How the results depend on the processing

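Over 2139 values of single genes and comparisons under the alternatives, 2021 kept their side of the threshold, including 33 uncalled values that changed sign, 35 fell below it, 82 passed it newly, and 1 reversed, which was Aldoa in pMx versus intact (log2 fold change from -0.94 to 0.42 as libraries were left out, 0.42 without intact replicate 3). When 1 library at a time was left out, the DEGs among the 34 genes numbered 3 to 5 in pMx versus sham (3 without sham replicate 3) and 6 to 10 in pMx versus intact (10 without intact replicate 3). Over all genes, the DEGs were 466 higher and 756 lower of 16411 without sham replicate 3. They were 990 higher and 1429 lower of 16432 without intact replicate 3. Of the 34, the genes past an adjusted p of 0.05 in sham versus intact numbered 0 to 5 against 1, with 5 without intact replicate 3 and 0 without sham replicate 1 or 2 or pMx replicate 2 or 3. Over all genes, 1037 rose and 1934 fell without intact replicate 3. Without the libraries whose loss gave 0, in the order named, 430 rose and 310 fell, 388 and 252, 834 and 669, and 854 and 737. Such genes among the 34 numbered 2 with a mean of at least 1 TPM, with median-of-ratios rescaling, with eBayes without trend and with robust eBayes, and 4 with a skeletal muscle score as covariate. Over all genes, in the same order, 1132 rose and 1037 fell, 1660 and 1147, 1099 and 994, 1165 and 1024, and 1444 and 1624. The cause was not tested. With that score as covariate and intact replicate 3 left out, an alternative chosen after seeing the data, 28, 1 and 24 of the 34 genes passed in pMx versus sham, sham versus intact and pMx versus intact, against 19, 1 and 18. Calls over all genes changed as well. With all 9 libraries and no covariate, 2926 rose and 3120 fell, 1112 and 985, and 3868 and 4482 of 16512 genes. In this alternative, 3676 rose and 3866 fell, 479 and 1037, and 2988 and 4709 of 16432 genes. The 1 of the 34 genes in sham versus intact was then Ndrg1, which fell (log2 fold change -0.45, adjusted p = 0.0463 by limma), while Hif1a lost its call (0.102). With the replicate number as a block, 18, 1 and 18 of the 34 genes passed and 4, 0 and 6 were DEGs. Over all 16512 genes, 2941 then rose and 2960 fell, 967 and 618, and 3883 and 4325. As DEGs, 547 were higher and 796 lower, 219 and 78, and 1055 and 1295. Slc16a3 in pMx versus sham was the call that the block lost (adjusted p = 0.0556 by limma). The numbers share no stated animal, so the block does not define a weaker effect. Leaving out a library moved the mean enzyme sum within 4003 to 9246 TPM in the intact, 4159 to 4795 TPM in the sham and 7367 to 7637 TPM in the pMx group. Ca12 has no value with a mean of at least 1 TPM. With 3 libraries a group and no read numbers, genes near 1 TPM such as Ca12, and Ca9 outside pMx, are the least certain.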
